A study of Mus musculus with 2 samples.

Results

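The genes described here are 29 mouse genes of cholesterol synthesis, sterol sensing, intracellular sterol handling, control of uptake, and efflux. They were chosen by name: a gene belongs if a non-control probe carries its symbol, or a synonym, on both arrays (Msmo1 also as Sc4mol). They made up 29 of the 31828 gene names and 39 of the 39429 probes measured. A single probe represented 19 of them, and 2 probes represented the other 10.

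Liver RNA of C57BL/6 mice was measured on 2 Agilent 2-colour arrays, 1 per genotype, with wild-type RNA on one and RNA of AID transgenic mice on the other. On each array the Cy5 channel held liver RNA of mice given the liver toxin thioacetamide with their drinking water over 6 months. The Cy3 channel held liver RNA of untreated mice of the same genotype. The study asked how the livers of both genotypes compared after this exposure. The sources used here do not give the promoter of the transgene, the age or sex of the mice, or whether a channel pooled several animals. No group was repeated and no dyes were swapped, so no difference below has a replicate check or a p-value, and treatment cannot be told apart from dye. The value after ± is the error that the scanner software gave its own log2 ratio, combined over the probes of a gene as the error of their mean; for a difference between arrays both errors were added in quadrature. It is technical, describes 1 hybridisation, and was not computed for the re-normalized ratio beside it.

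Cholesterol is built from acetyl-CoA through mevalonate and isoprenoid intermediates to squalene, which is epoxidised, closed into a sterol ring and trimmed to cholesterol. When sterols are scarce, Scap carries the SREBP precursors out of the endoplasmic reticulum and the released factors switch on genes of synthesis and uptake. When sterols are plentiful, the Insig proteins hold Scap back and LXR receptors switch on genes of efflux. The liver is a main site of this synthesis and of cholesterol export.

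Promoter sequence from RefSeq (GRCm38.p6) was available here for 23 of the 29 genes, as the 250 bases before the annotated start. The lines below give the promoters of the 3 of these genes with the highest treatment ratio in wild-type liver and of the gene with the lowest, written 5′ to 3′ on the strand of the gene. Hmgcs1 is also the promoter that the rule for showing sequences selected, and the others were chosen after their values were seen. Capitals mark the core of the sterol regulatory element bound by SREBP factors, TCACNCCAC, and the NF-Y box CCAAT, each searched on both strands, so that a box on the other strand reads ATTGG. The windows are chr13:119690101-119690350 on the plus strand for Hmgcs1, chr3:89454291-89454540 on the plus strand for Pmvk, chr8:122443423-122443672 on the minus strand for Mvd and chr19:6067851-6068100 on the minus strand for Tm7sf2.
Hmgcs1: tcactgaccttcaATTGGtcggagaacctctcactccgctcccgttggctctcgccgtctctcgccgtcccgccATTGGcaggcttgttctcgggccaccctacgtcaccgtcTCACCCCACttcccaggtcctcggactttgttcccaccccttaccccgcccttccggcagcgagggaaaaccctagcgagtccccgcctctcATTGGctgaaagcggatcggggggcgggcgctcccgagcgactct
Pmvk: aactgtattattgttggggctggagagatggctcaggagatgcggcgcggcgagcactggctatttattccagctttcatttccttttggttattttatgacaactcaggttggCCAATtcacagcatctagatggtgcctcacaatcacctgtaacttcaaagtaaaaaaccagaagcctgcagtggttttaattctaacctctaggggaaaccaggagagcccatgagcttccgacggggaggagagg
Mvd: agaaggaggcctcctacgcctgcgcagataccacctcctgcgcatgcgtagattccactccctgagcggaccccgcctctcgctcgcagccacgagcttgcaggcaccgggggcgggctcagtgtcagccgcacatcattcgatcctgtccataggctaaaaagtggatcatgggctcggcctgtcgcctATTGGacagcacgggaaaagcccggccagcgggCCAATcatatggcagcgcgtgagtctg
Tm7sf2: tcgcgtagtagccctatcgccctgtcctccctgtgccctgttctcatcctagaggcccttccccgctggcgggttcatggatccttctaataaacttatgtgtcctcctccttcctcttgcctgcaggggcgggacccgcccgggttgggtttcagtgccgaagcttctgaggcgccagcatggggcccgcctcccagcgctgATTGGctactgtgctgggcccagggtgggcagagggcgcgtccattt

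The Hmgcs1 window held 1 element core and 3 NF-Y boxes. Pmvk and Tm7sf2 held 1 NF-Y box each and Mvd held 2, and no element core was found in those windows. The core was found in 1 of the 23 members and in 331 of all 27025 genes with a promoter (1.22%). The NF-Y box was found in 20 of the 23 members (87.0%), all but Acat2, Scap and Abca1, and in 10133 of the 27025 genes (37.5%). The LXR motif, a direct repeat of AGGTCA with 4 bases between, was found in no member and in 4 of the 27025 genes. The motifs did not overlap in the windows shown, genes were not matched for base composition, and these matches are letters in a window and not evidence of binding.

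The tissue label was checked first. All 9 hepatocyte markers measured were present, and their summed level lay between 19.92 and 20.01 on the log2 intensity scale in the 4 channels. The wild-type array carried a difference in sex-linked transcripts: the Y-linked genes Ddx3y and Eif2s3y were at least 16.5-fold and at least 30.7-fold lower in the treated than in the untreated channel. Xist was 6.25-fold higher there, over an untreated signal not well above background. That value is the mean of 2 probes that differed, with an SD of 1.15 between their log2 ratios. Uty, also Y-linked, had log2 ratios of -0.58 ± 0.62 in wild-type and -0.11 ± 0.47 in AID transgenic liver, both within their errors. In treated wild-type liver Uty was not well above background, and its fold was bounded at 1.49 lower or more. Kdm5d, Y-linked as well, was not well above background in any channel. On the AID transgenic array, Ddx3y and Eif2s3y had log2 ratios of -0.09 ± 0.20 and -0.02 ± 0.20, while neither channel gave Xist a signal well above background. The wild-type treatment ratio, and each comparison with the treated wild-type channel, therefore holds the treatment and this sex-linked difference together, and these cannot be told apart. The AID transgenic ratio and the comparison of the untreated livers do not involve that channel. In bulk liver RNA, fewer cells of a type and less RNA per cell cannot be told apart either.

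In wild-type liver the cholesterol enzymes were mostly higher with thioacetamide, led by Sqle and Hmgcs1. Of the 18 enzymes, 13 had a log2 ratio above 0, beside 53.6% of all genes. Their median was 0.33, and the median over all 29 genes was 0.18 against 0.02 over all 21688 genes counted. In AID transgenic liver 13 of the 18 enzymes were also above 0, beside 54.2% of all genes, their median was 0.07, and that of the 29 genes was 0.01 against 0.02 over all 21771 genes counted. A gene was counted where a probe was well above background in at least 1 channel that entered. By a fold of 2, 2 of the 29 genes were higher in treated wild-type liver (Sqle and Hmgcs1), beside 1.66% of all genes, and 0 were lower, beside 1.45%. By a fold of 1.5, 5 were higher (Sqle, Hmgcs1, Pmvk, Mvd and Cyp51), beside 5.54%, and 1 was lower (Tm7sf2), beside 4.47%. On the AID transgenic array 0 of the 29 passed 2-fold, beside 1.83% of all genes. By a fold of 1.5, 3 were higher there (Pmvk, Sqle and Hmgcs1), beside 4.16%, and Tm7sf2 alone was lower, beside 3%. The sizes, the counts by fold and the signs of several ratios depend on the loess step. With median centring instead, the median ratio of all genes became 0.30 on both arrays. Of the 29 genes, 25 then lay above it in wild-type and 22 in AID transgenic liver. Of the 18 enzymes, 17 then lay above the median of all genes in wild-type and 15 in AID transgenic liver, against 13 and 11 with loess. The share of higher genes among all genes past 2-fold was 53.4% in wild-type and 56.5% in AID transgenic liver, and 94.4% and 96.8% with median centring, 65.6% and 71.9% with no background offset, and 72.4% and 79.1% with the scanner's processed signals.

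**Figure D1:**
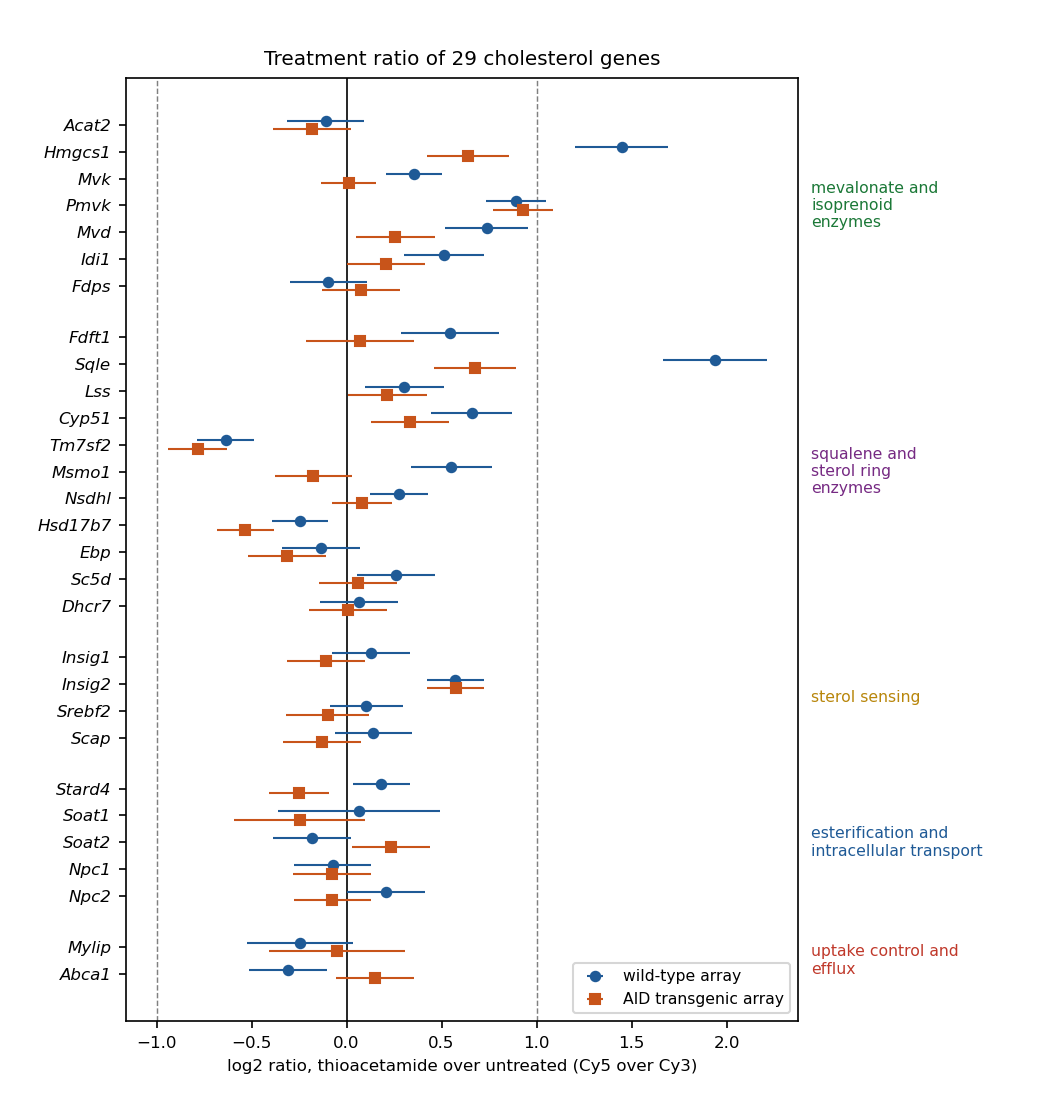
Log2 ratio of thioacetamide over untreated liver for each of the 29 genes, by role, on the wild-type array (blue circles) and the AID transgenic array (orange squares). Bars are the scanner software's error, and dashed lines mark a 2-fold change: Sqle and Hmgcs1 lie past it on the wild-type array, and no gene does on the AID transgenic array.

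Sqle, which encodes squalene epoxidase, the enzyme that adds oxygen to squalene before ring closure and a rate-limiting step of the pathway, had the largest ratio of the 29 in wild-type liver. Its normalized log2 level was 10.44 in untreated and 12.38 in treated wild-type liver, and 10.91 in untreated and 11.59 in treated AID transgenic liver. The treated wild-type channel was the highest of the 4, and the untreated AID transgenic channel lay above the untreated wild-type one. The ratio was 1.94 ± 0.27 (3.84-fold) in wild-type and 0.68 ± 0.21 in AID transgenic liver. Sqle stood 65th from the top among the 21688 genes counted on the wild-type array and 647th among 21771 on the AID transgenic array. Its probe lies at chr15:59162688-59162747 in mm9, on the plus strand.

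Among the mevalonate and isoprenoid enzymes, Hmgcs1 encodes the cytosolic HMG-CoA synthase that makes the precursor of mevalonate. Its level was 12.59 in untreated and 14.03 in treated wild-type liver, and 12.69 and 13.33 in AID transgenic liver. Both treated channels lay above both untreated ones, and the wild-type treated channel was the highest. The ratio was 1.45 ± 0.25 (2.73-fold) in wild-type and 0.64 ± 0.22 in AID transgenic liver.

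Pmvk, the phosphomevalonate kinase, was higher by more than 1.5-fold in both genotypes. Its level was 11.96 in untreated and 12.86 in treated wild-type liver, and 11.84 and 12.77 in AID transgenic liver. Each treated channel lay above each untreated one, with ratios of 0.89 ± 0.16 and 0.93 ± 0.16. Pmvk had the highest ratio of the 29 genes on the AID transgenic array, where it stood 288th of all genes from the top.

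Mvd, the decarboxylase that forms isopentenyl diphosphate, had levels of 8.38 and 9.11 in untreated and treated wild-type liver and 8.33 and 8.59 in AID transgenic liver. Its ratio of 0.74 ± 0.22 in wild-type exceeded 1.5-fold, and that of 0.26 ± 0.21 in AID transgenic liver did not. Idi1, which isomerises isopentenyl diphosphate, had ratios of 0.51 ± 0.21 and 0.21 ± 0.21. For Mvk, the mevalonate kinase, they were 0.35 ± 0.15 and 0.01 ± 0.14. The first and the last enzyme of this segment differed from these. Acat2, the cytosolic thiolase that joins acetyl-CoA units, had ratios of -0.11 ± 0.20 and -0.18 ± 0.20, and Fdps, the farnesyl diphosphate synthase, had -0.10 ± 0.20 and 0.07 ± 0.20, all within their errors.

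Of the enzymes after squalene, Cyp51, the lanosterol demethylase, had levels of 8.78 and 9.44 in untreated and treated wild-type liver and 8.47 and 8.80 in AID transgenic liver. Its ratios were 0.66 ± 0.21 and 0.33 ± 0.21, and both AID transgenic channels lay below their wild-type counterparts. Msmo1, a methylsterol monooxygenase, had levels of 13.07 and 13.62 in wild-type and 13.04 and 12.86 in AID transgenic liver. The treated wild-type channel stood alone above the other 3, which lay close together, and the ratios were 0.55 ± 0.21 and -0.17 ± 0.20. Nsdhl, the X-linked dehydrogenase that works with Msmo1, had ratios of 0.28 ± 0.15 and 0.08 ± 0.16. Hsd17b7, the ketosteroid reductase of the same demethylation steps, had ratios of -0.24 ± 0.15 and -0.53 ± 0.15, below 0 on both arrays, unlike Msmo1 and Nsdhl in wild-type liver.

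Fdft1, the squalene synthase, had ratios of 0.54 ± 0.26 and 0.07 ± 0.28 as the mean of 2 probes that differed. The brighter probe gave 0.96 and 0.12 in wild-type and AID transgenic liver, and the dimmer gave 0.12 and 0.02 and was not well above background in the untreated channel of either array. Lss, the lanosterol synthase that closes the ring, had ratios of 0.30 ± 0.21 and 0.21 ± 0.21. Sc5d, a sterol desaturase, had 0.26 ± 0.21 and 0.06 ± 0.20, Dhcr7, a reductase of the final steps, 0.07 ± 0.20 and 0.01 ± 0.21, and Ebp, the X-linked sterol isomerase, -0.13 ± 0.20 and -0.31 ± 0.21.

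Tm7sf2, a sterol reductase that acts after Cyp51, was the only enzyme lower by 1.5-fold or more, and it was so on both arrays. Its level was 12.83 in untreated and 12.20 in treated wild-type liver, and 12.78 and 11.998 in AID transgenic liver. Each treated channel lay below each untreated one, with ratios of -0.64 ± 0.15 and -0.78 ± 0.15. Its 2 probes gave -0.40 and -0.87 in wild-type and -0.54 and -1.03 in AID transgenic liver, so the size differed between them, and the brighter probe, with -0.40 and -0.54, was short of 1.5-fold. With median centring the wild-type value turned to 0.083, which was still below the median of all genes under that setting, 0.30.

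The sterol sensors were close to 0 apart from Insig2. Insig2, the Insig form that SREBP factors do not drive, had levels of 12.01 and 12.58 in untreated and treated wild-type liver and 11.78 and 12.35 in AID transgenic liver. Its ratio was 0.57 ± 0.15 on each array, with each treated channel above each untreated one and just short of 1.5-fold. Insig1, the form that is itself a target of SREBP factors, had ratios of 0.13 ± 0.20 in wild-type and -0.11 ± 0.20 in AID transgenic liver. Scap, the escort of the SREBP precursors, had 0.14 ± 0.20 and -0.13 ± 0.20. Srebf2, which encodes the SREBP form that mainly drives cholesterol genes, had 0.10 ± 0.19 and -0.10 ± 0.22, with probes that disagreed: one gave 0.36 and -0.26 and the other -0.15 and 0.06.

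None of the genes of sterol handling and efflux passed 1.5-fold on either array. Stard4, which moves cholesterol between membranes, had levels of 9.37 and 9.55 in wild-type and 9.32 and 9.07 in AID transgenic liver. Its ratios were 0.18 ± 0.15 and -0.25 ± 0.16 as the mean of 2 probes. Of the 10 genes with opposite signs on the 2 arrays, Stard4 alone had both mean values larger than their errors. Neither probe did by itself: the brighter gave 0.31 ± 0.21 and -0.08 ± 0.20, and the dimmer 0.05 ± 0.21 and -0.42 ± 0.24. Npc1 and Npc2, which release cholesterol from lysosomes, had -0.07 ± 0.20 and 0.21 ± 0.21 in wild-type and -0.08 ± 0.20 and -0.07 ± 0.20 in AID transgenic liver. Soat2, the main cholesterol-esterifying enzyme of hepatocytes, had -0.18 ± 0.20 and 0.23 ± 0.20. Soat1, the form of macrophages and many other cells, had 0.07 ± 0.43 and -0.25 ± 0.34 and was not well above background in untreated wild-type liver, the one channel in which any of the 29 fell short. Mylip, the ligase that marks lipoprotein receptors for degradation, had -0.25 ± 0.28 and -0.05 ± 0.36 as the mean of 2 probes. The brighter gave -0.46 ± 0.21 and -0.05 ± 0.21. The dimmer gave -0.03 ± 0.51 and -0.06 ± 0.69 and was not well above background in the untreated channel of either array. Abca1, the efflux pump that loads cholesterol onto apolipoproteins and a target of LXR, had levels of 11.32 and 11.02 in wild-type and 11.14 and 11.29 in AID transgenic liver, with ratios of -0.31 ± 0.21 and 0.15 ± 0.20.

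For most enzymes the treatment ratio was lower in AID transgenic than in wild-type liver. The wild-type ratio exceeded the AID transgenic ratio in 16 of the 18 enzymes, among them all 11 from Fdft1 onward, and in 7 of the other 11 genes. Over all genes counted the wild-type ratio was the higher in 49.5%. Pmvk and Fdps were the enzymes that differed the other way, by 0.04 ± 0.22 and 0.17 ± 0.29. Under every alternative setting run that gives this difference, the 11 enzymes from Fdft1 onward kept that order, and the count over the 18 enzymes was 16, or 17 with the brightest probe of each gene. The median difference, AID transgenic minus wild-type, was -0.25 over the 18 enzymes and -0.20 over the 29 genes, against 0.0033 over all 22425 genes counted. The 9 hepatocyte markers had a median difference of -0.19, with 6 of 9 below 0. Every one of these differences draws on the treated wild-type channel, which carried the sex-linked difference, whose part was not tested.

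In that difference, 1 of the 29 genes was lower by 2-fold (Sqle), beside 0.941% of all genes, and 3 by 1.5-fold (Sqle, Hmgcs1 and Msmo1), beside 2.57%. Sqle differed by -1.26 ± 0.35, Hmgcs1 by -0.81 ± 0.33 and Msmo1 by -0.73 ± 0.29. With Stard4, at -0.43 ± 0.22, these were the 4 genes whose difference was over 2 times its error. The Stard4 value is the mean of 2 probes, which gave -0.39 and -0.47, and neither probe was over 2 times its error by itself. Fdft1, at -0.48 ± 0.38, was also the mean of 2 probes, which differed. The brighter gave -0.85, past 1.5-fold and over 2 times its error. The dimmer gave -0.11 and was not well above background in the untreated channel of either array. Sqle stood 136th and Hmgcs1 310th from the bottom of the 22425 genes. In the opposite direction 0 of the 29 passed 1.5-fold, beside 2.74% of all genes. Abca1 (0.46 ± 0.29) and Soat2 (0.42 ± 0.29) were the highest.

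**Figure D2:**
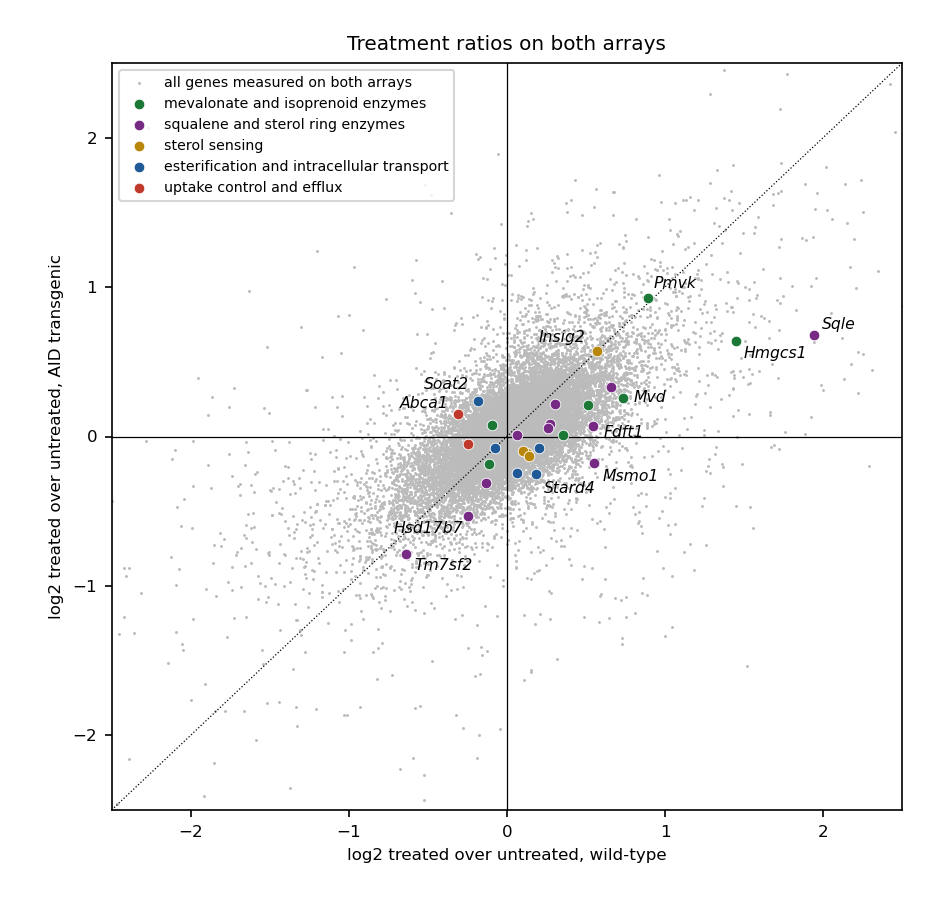
Log2 treatment ratio in AID transgenic liver (vertical axis) against that in wild-type liver (horizontal axis) for the 29 genes, coloured by role, over all genes counted on both arrays in grey (20970 drawn, and 64 outside the axes, which end at 2.5). Sqle and Hmgcs1 sit far right of the dotted line of equal ratios, and Pmvk, Tm7sf2 and Insig2 lie close to it.

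The genotypes were then compared within each treatment state. Among the treated livers, 16 of the 18 enzymes were lower in AID transgenic than in wild-type liver, all but Acat2 and Ebp, with a median of -0.40, while 49.6% of all genes were lower. By a fold of 1.5, 4 of the 29 were lower there, namely Sqle at -0.79, Msmo1 at -0.75, Hmgcs1 at -0.70 and Cyp51 at -0.63, beside 1.74% of all genes. None was higher by that fold, beside 2.14%. Among the untreated livers, 13 of the 18 enzymes were lower in AID transgenic liver, with a median of -0.06, against 50.5% of all genes. With no normalization between the arrays 16 of the 18 were below 0, with a median of -0.23, while the median of all genes was -0.13 and 13 of the 18 lay below that. With normalization between the arrays, 0 of the 29 passed 1.5-fold in either direction among the untreated livers, beside 1.85% of all genes. The largest untreated differences were 0.47 for Sqle and -0.42 for Dhcr7. For Sqle the signs were opposite, 0.47 untreated and -0.79 treated, and both enter its difference of -1.26. Dhcr7 was lower in AID transgenic liver in both states, at -0.42 and -0.48, with treatment ratios near 0. These 2 comparisons and the 2 treatment ratios come from the same 4 channels and are not independent of each other.

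**Figure D3:**
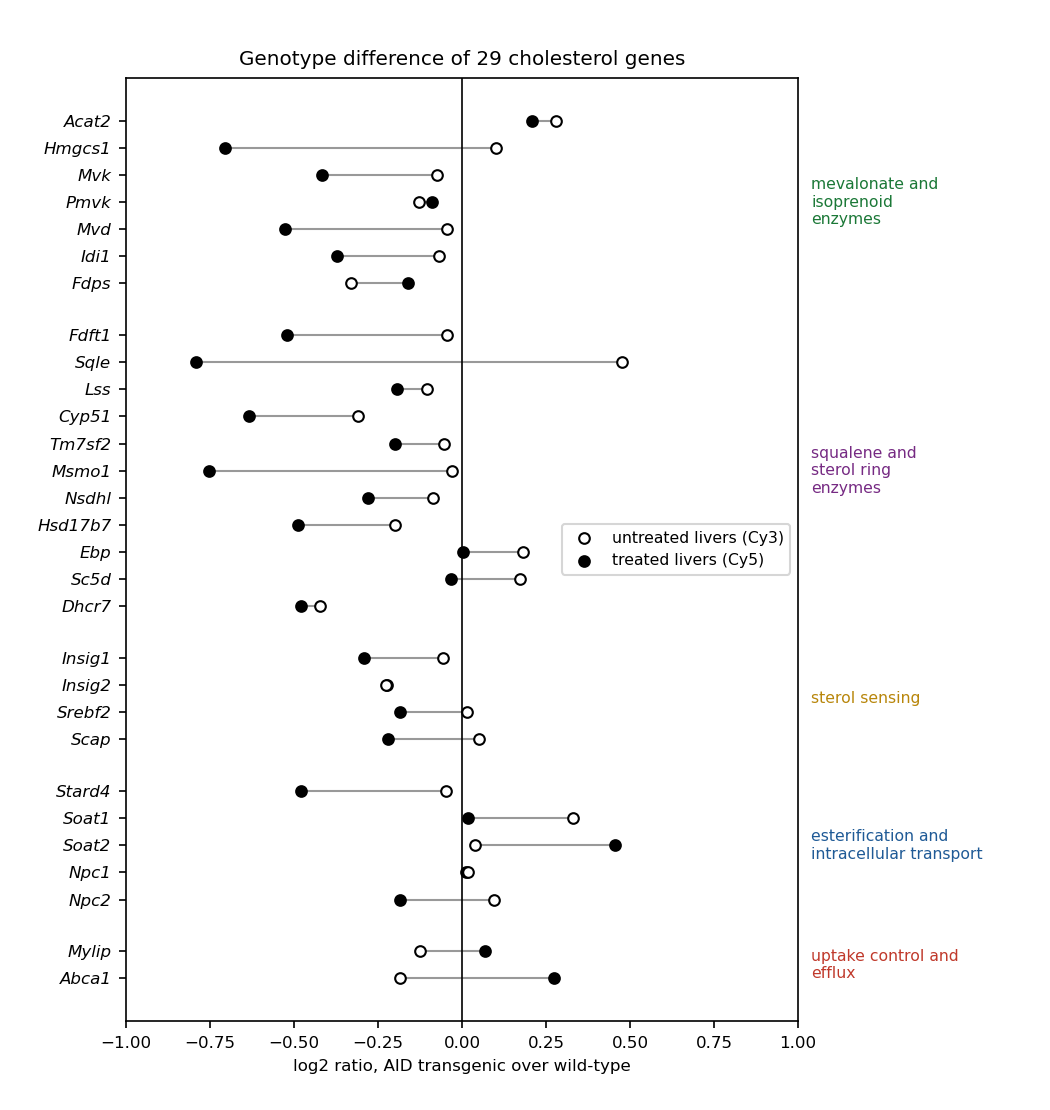
Log2 level in AID transgenic over wild-type liver for the 29 genes by role, in untreated (open circles) and treated (filled circles) livers, after normalization between the arrays. Among the enzymes the filled circles lie left of 0 for 16 of 18, down to -0.79 for Sqle, while the open circles stay between -0.42 and 0.47.

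Other genes of sterol and SREBP biology were counted alongside. Of 30 other genes of sterol transport, bile acid synthesis and SREBP or LXR control, 11 were above 0 in wild-type liver, beside 53.6% of all genes. Their median was -0.04, and 0 passed 2-fold, beside 3.12% of all genes. On the AID transgenic array their median was -0.05, and 1 passed 2-fold, beside 1.83% of all genes. It was Cyp27a1, the mitochondrial sterol hydroxylase of the acidic bile acid route, at -1.17 ± 0.07, with -0.74 ± 0.07 in wild-type liver. Their median difference between the genotypes was 0.03. Of 12 fatty acid genes driven by SREBP factors, 3 were above 0 and 9 below in treated wild-type liver, with a median of -0.28. In treated AID transgenic liver 8 were above 0 and 4 below, with a median of 0.28. Of all genes, 53.6% and 54.2% were above 0. With median centring both medians of the 12 genes were above 0, at 0.24 and 0.77. The median of all genes was then 0.30 on both arrays, and the wild-type value lay below it. Scd1, the stearoyl-CoA desaturase, had ratios of -1.27 ± 0.23 and 0.31 ± 0.21 in wild-type and AID transgenic liver, and Thrsp, a lipogenic regulator of liver, had -1.99 ± 0.27 and -0.61 ± 0.21. The difference between genotypes had a median of 0.61 over the 12 genes and reached 2-fold for Scd1 (1.58 ± 0.31), Thrsp (1.38 ± 0.35) and the fatty acid synthase Fasn (1.08 ± 0.30), beside 0.87% of all genes higher by that fold. It was above 0 for 9 of the 12 under every setting run that gives it, opposite in sign to the median of the cholesterol enzymes. In untreated livers 10 of the 12 were lower in AID transgenic than in wild-type liver, with a median of -0.33, beside 50.5% of all genes. Thrsp and Fasn were at -1.53 and -1.16 there. In treated livers 6 were higher and 6 lower, with a median of 0.015, beside 49.6% of all genes lower. Thrsp and Fasn were then at -0.15 and -0.08. Scd1 was at -0.32 in untreated and 1.26 in treated livers.

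**Figure D4:**
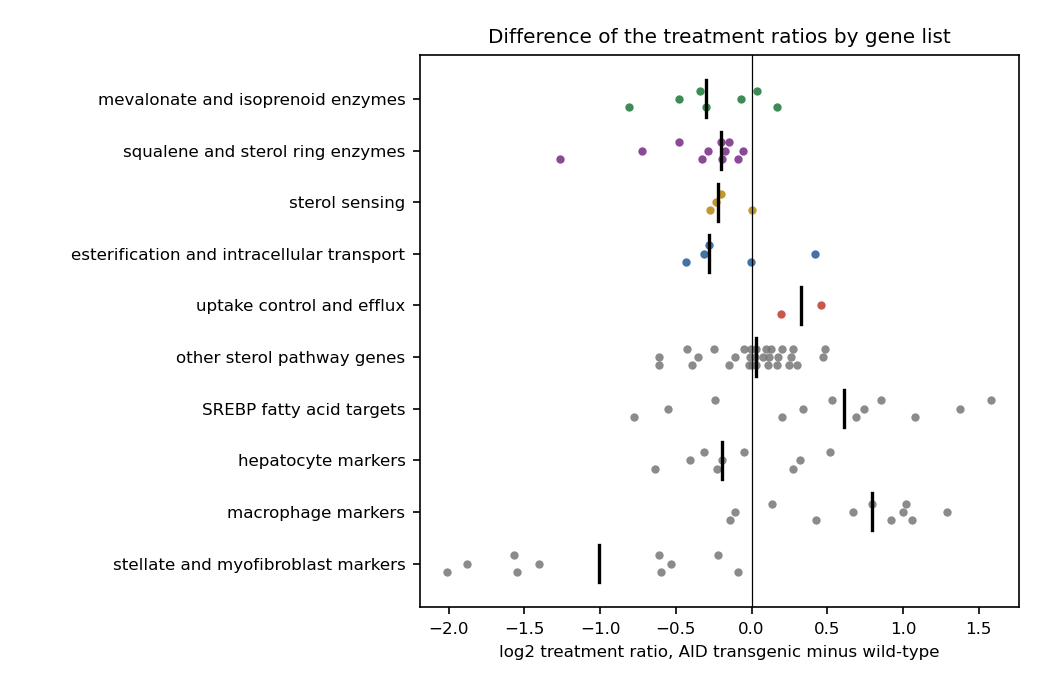
Difference of the log2 treatment ratios, AID transgenic minus wild-type, for each gene (points) of the 5 roles and of 5 other lists, with the median of each list as a black bar. The cholesterol enzymes lie mostly below 0, the fatty acid targets of SREBP and the macrophage markers mostly above 0, and all 10 stellate and myofibroblast markers below 0.

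Markers of other liver cells differed between the genotypes alongside these genes. All 11 macrophage markers were above 0 in treated AID transgenic liver, beside 54.2% of all genes, with a median of 0.97. Of these, 5 were higher by 2-fold, beside 1.03% of all genes. In treated wild-type liver 7 of 11 were above 0, beside 53.6% of all genes, with a median of 0.16. Their summed log2 level was 14.13 and 14.43 in untreated and treated wild-type liver and 14.45 and 15.53 in AID transgenic liver. Between the untreated livers the markers did not share a direction. There, 5 were higher and 6 lower in AID transgenic liver, beside 50.5% of all genes lower. Their median was -0.04 and the highest value 2.53. The 10 stellate and myofibroblast markers had medians of 0.40 in wild-type and -0.46 in AID transgenic liver. All 10 had a difference below 0, beside 49.5% of all genes. Their summed level was 12.47 and 12.86 in wild-type and 12.97 and 12.21 in AID transgenic liver. Between the untreated livers 7 were higher and 3 lower in AID transgenic liver, with a median of 0.33, beside 50.5% of all genes lower. Between the treated livers all 10 were lower, with a median of -0.47, beside 49.6% of all genes. The 7 cholangiocyte markers reported summed to 9.99 and 10.83 in wild-type and 10.15 and 9.93 in AID transgenic liver, and 2 of them were not well above background in each channel but treated wild-type. The 8 endothelial markers summed to between 14.11 and 14.34 and the 8 lymphocyte markers to between 11.10 and 11.45, with 4 of the 8 not well above background in each untreated channel and 1 in treated wild-type liver. The part of these cells in the values of the cholesterol genes was not tested.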

How the data were processed

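The authors deposited the scanner output of 2 two-colour arrays of Agilent design, with probe positions on mm9 per the file headers. The headers name Feature Extraction 10.7.3.1, whereas the submitters' processing notes name 10.5.1.1. The deposited intensity columns are of 2 kinds: raw spot means with local background medians, and processed signals already corrected for background and dye, per the file headers. The authors also deposited a log10 ratio of Cy5 to Cy3 processed signal and, as a score from the scanner's error model, the error of that ratio, and these deposited values were converted to log2 here. The series' deposited value table matched that log10 ratio on all 43020 non-control features (largest difference 0, column medians 0).

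Values were computed with limma 3.58.1 in R 4.3.3. Mean signals were corrected by normexp with an offset of 50, followed by within-array loess in which control and outlier spots had weight 0. Control spots, and 197 and 207 outlier spots on the wild-type and AID transgenic arrays, were then left out. Levels and comparisons between genotypes used Aquantile normalization between the arrays. Spots were averaged per probe and probes per gene name. No level of one gene was compared with that of another. Summaries used Python 3.11.15, numpy 2.4.6 and pandas 2.3.3, and the steps were tested on simulated data.

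Precision is limited by 1 array per genotype. On the wild-type array 56.0% of spots were well above background in Cy3 and 68.4% in Cy5; on the AID transgenic array the shares were 53.9% and 68.8%, and 0 spots were saturated. Over 387 and 385 probes spotted repeatedly, the median SD of the log2 ratio between spots was 0.082 on each array. Both arrays were on the same slide and scan. For the folds of sex-linked transcripts, a channel not well above background was raised to the lowest signal well above background there, if it lay below that signal. Such a fold is a bound. The untreated Xist level did not lie below that signal and entered as measured. Genes were counted by a fold of 2 and, as a second rule, of 1.5. The 29 genes and all lists were chosen with earlier results of these data known. All 29 are named; from the lists of other sterol genes and SREBP fatty acid targets, genes past 2-fold in a treatment ratio or in the difference are named, with sex-linked transcripts, and cell type markers are given as lists. Promoters were to be shown for members that hold the sterol element core. The effect of 10 alternative settings is given in the closing section. One cell type marker of the original list is not reported here.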

Additional observations from a re-analysis of the deposited data

Results flagged for a closer look

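For 10 of the 29 genes the log2 treatment ratio had opposite signs on the 2 arrays, and for none of them was the difference tested, with 1 array per genotype. Of these, 7 were above 0 in wild-type and below 0 in AID transgenic liver. They were Msmo1 (0.55 and -0.17), Insig1 (0.13 and -0.11), Srebf2 (0.10 and -0.10, with probes that disagreed), Scap (0.14 and -0.13), Stard4 (0.18 and -0.25), Soat1 (0.067 and -0.25, with an untreated wild-type signal not well above background) and Npc2 (0.21 and -0.075). The other 3 were below 0 in wild-type and above 0 in AID transgenic liver, namely Fdps (-0.10 and 0.074), Soat2 (-0.18 and 0.23) and Abca1 (-0.31 and 0.15). Both values were larger than the scanner error for Stard4 alone, as the mean of its 2 probes and for neither probe by itself. With median centring in place of loess, Srebf2 alone of the 10 kept opposite signs, Soat1 was below 0 on both arrays, and the other 8 were above 0 on both.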

How the results depend on the processing

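No paired analysis was possible because each genotype had 1 array and the labels give no replicate numbers that pair samples. Leaving out a replicate was not possible for the same reason. Requiring every channel well above background, no filter on dim probes, keeping outlier spots and naming probes by RefSeq accession left every count and median of the 29 genes within 1.5 times or 0.1 log2 of its reported value. With median centring in place of loess, 10 genes were higher by 2-fold and 21 by 1.5-fold in wild-type liver, 4 and 16 in AID transgenic liver, 0 were lower by 1.5-fold on either array, and the medians were 0.79 and 0.61. Tm7sf2 then had a wild-type ratio of 0.083. The all-gene median was then 0.30 on both arrays. With a normexp offset of 0, 2 genes were lower by 1.5-fold in AID transgenic liver (Tm7sf2 and Hsd17b7), and 1 was higher in the untreated comparison (Soat1). With processed signals, and likewise with the deposited value table, 8 genes were higher by 1.5-fold in wild-type liver, 2 were lower in AID transgenic liver, and in the difference 6 were lower and 1 was higher. With processed signals 1 gene, Soat1, was also higher by 1.5-fold and by 2-fold in the untreated comparison. With the brightest probe, 0 genes were lower by 1.5-fold on either array and 5 were lower in the difference. With no normalization between arrays, 1 gene was lower by 1.5-fold in untreated and 10 in treated AID transgenic liver, with medians of -0.22 and -0.41, while the all-gene medians were -0.13 and -0.10. The cause of these changes was not tested. The share of all genes past 1.5-fold under these settings is not given here. These counts therefore show how the 29 genes move with processing, and not how they stand beside all genes.

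The difference for Sqle ranged from -1.30 to -1.24 over the settings run, that for Hmgcs1 from -0.83 to -0.73 and that for Msmo1 from -0.75 to -0.72. Counts over all genes moved further. Genes higher by 2-fold numbered 361 in wild-type and 225 in AID transgenic liver, against 988 and 794 with an offset of 0, 2085 and 1640 with median centring and 2145 and 2209 with processed signals. Genes lower by 2-fold numbered 315 and 173, against 518 and 311, 123 and 55, and 817 and 584 under the same settings. In the difference, 195 were higher and 211 lower by 2-fold, against 557 and 644 with an offset of 0 and 1229 and 1221 with processed signals. Between untreated livers 50 were higher and 42 lower, against 272 and 297 with processed signals, and between treated livers 141 and 143, against 626 and 590.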
